A study of Mus musculus with 2 samples.

Results

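A group of 242 myeloid cells of mouse dental pulp, the soft vascular tissue inside the tooth, was picked out by the transcripts of Plac8, Ly6c2 and Chil3. The group held 150 of 1683 kept cells in the Vegfr2 knockout library and 92 of 2329 kept cells in the control library, out of 4012 kept cells in all. Kept cells had 500 genes or more, 1000 UMIs or more (unique molecular identifiers, each standing for 1 captured transcript) and no more than 10% of UMIs from mitochondrial genes. A kept cell was myeloid with a UMI in 4 or more of the 7 genes Csf1r, Lyz2, Aif1, Cd68, Ctss, Tyrobp and Fcer1g and with no UMI of the endothelial gene Cdh5, the glial gene Sox10 or the mural gene Notch3. Myeloid cells were selected with fewer than 6 UMIs of C1qa, C1qb and C1qc, no Cd209a UMI, fewer than 50 UMIs of S100a8 and S100a9, and 3 or more UMIs of Ly6c2, Plac8 and Chil3. Measured counts chose the cells, so levels of these genes, and any gene of the selected cells set against other cells, are given as description.

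The study compared mice whose endothelial cells lacked Vegfr2 with control mice, both C57BL/6 and at postnatal day 12, with 1 library of single cells for each genotype. VEGFR2, encoded by Kdr, is the receptor through which vascular endothelial growth factor A acts on endothelial cells. Pulp was digested with enzymes, and cells that excluded propidium iodide were sorted and captured in droplets by the 10x Chromium 3' method. The driver of the knockout, what the control mice carried and the number of animals pooled are not given in the sources used here. A single library per genotype leaves no replicate check, so no p-value is given. All intervals are 95% exact intervals of counting error, and genotype, animals and library cannot be told apart.

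Classical monocytes leave the bone marrow with Ly6C on their surface, enter tissue through the chemokine receptor CCR2, and can become macrophages or dendritic cells there. Non-classical monocytes carry little Ly6C, depend on the nuclear receptor Nr4a1 and patrol the inside of vessels with the fractalkine receptor CX3CR1. Conventional dendritic cells come from another precursor, need the receptor Flt3 and present antigen on MHC class II.

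The libraries differed in depth and software as well as genotype. The knockout library held 2563 barcodes and 17277162 UMIs, and the control library 3487 barcodes and 35918862 UMIs. Kept cells had a median of 8302 UMIs in the knockout library and 12224 UMIs in the control library. Cell Ranger 6.0.1 wrote the knockout matrix and Cell Ranger 5.0.0 the control matrix, per the file headers. The libraries shared 3 barcodes, and 0 of these were selected cells. Cells with Xist UMIs and no Y-linked UMI numbered 876 in the knockout library and 1729 in the control library, and cells with Y-linked UMIs and no Xist UMI 447 and 330. Kdr was at 75.3 CPM (UMIs of a gene per 1000000 UMIs of the cells named) in knockout non-myeloid cells and 248 CPM in control non-myeloid cells. The endothelial list summed to 732 and 1754 CPM in the same knockout and control cells, so it too was lower in the knockout library. The level of Kdr within endothelial cells was not compared. A 3' transcript tag does not test for a deleted exon elsewhere in the gene.

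The label of Ly6c2 monocyte was met in part. No Ly6c2 UMI was seen in 72 of 150 selected knockout cells and 50 of 92 selected control cells. Plac8, which encodes a small cysteine-rich protein of leukocytes, would by itself have selected 134 knockout and 91 control cells, against 58 and 27 for Ly6c2 with Chil3. Chil3, which encodes a chitinase-like protein of myeloid cells, had a UMI in 16 knockout and 4 control cells. They are therefore called the Plac8 and Ly6c2 selected cells, or selected cells.

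The levels of the selecting genes differed by gene and by library. Plac8 had 2029.8 CPM in selected knockout cells and 3050.1 CPM in selected control cells, and Ly6c2 had 298 and 278 CPM. Ly6c2 has a near-identical neighbour, Ly6c1, and Ifit3 and Gstp1, named further on, have close copies too, so their counts are uncertain where reads could match either gene. Chil3 had 46.0 and 3.06 CPM, from 71 and 4 UMIs. Lyz2, the lysozyme gene of myeloid cells, had 11715 and 13734 CPM. Non-myeloid cells had 69.4 and 37.4 CPM of Plac8 and 13.4 and 8.85 CPM of Ly6c2. They hold other leukocytes too, with neutrophil genes summing to 1830 CPM in knockout and 603 CPM in control non-myeloid cells. Their levels can thus hold expression as well as free RNA, and they are given for comparison.

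Shares of cells with a UMI were compared after thinning each cell to 2000 UMIs. Each thinned share comes from 1 random draw, made separately for each group of cells. Ly6c2 was seen in 34.2% and 22.8% of selected knockout and control cells (before thinning 52% and 45.7%, with medians of 9556 and 12074.5 UMIs a cell), against 2.09% and 0.936% of knockout and control non-myeloid cells (before thinning 4.18% and 2.66%, with medians of 7823.5 and 11518 UMIs a cell). Plac8 was seen in 87.0% and 91.3% of selected knockout and control cells (97.3% and 100% unthinned), against 9.60% and 5.79% of non-myeloid cells (22.2% and 17% unthinned). Both genes stood above the non-myeloid share in each library, an outcome built in by the selection, which used them. Chil3 was seen in 4.79% and 0% of selected knockout and control cells and 1.05% and 0.292% of non-myeloid cells. Before thinning the Chil3 shares were 10.7% and 4.35% of selected and 2.05% and 0.666% of non-myeloid cells. Chil3 was used by the selection too, so these shares only describe the cells.

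Few cells lay near most of the limits. The sum of Ly6c2, Plac8 and Chil3 was 3 UMIs, just inside, in 10 knockout and 2 control cells, and 2 UMIs, just outside, in 7 knockout and 7 control cells. No C1q UMI was seen in 135 selected knockout and 78 selected control cells, and the most in any was 1 and 3 UMIs. The C1q limit alone kept out 8 knockout and 14 control cells. The limit of no Cd209a UMI alone kept out 151 knockout and 163 control cells, of which 14 and 12 had a single one. The S100a8 and S100a9 limit alone kept out 17 knockout cells, the lowest at 56 UMIs, and 6 control cells, the lowest at 117 UMIs, while selected cells reached 45 and 26 UMIs.

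Plac8 (ENSMUSG00000029322) is a protein-coding gene that spans positions 100553725 to 100572245 of chromosome 5 in GRCm38, on the minus strand. Ly6c2 (ENSMUSG00000022584) is one that spans positions 75108158 to 75111970 of chromosome 15, also on the minus strand. The bases before their starts are printed because these genes made most of the selection. They are from RefSeq (GRCm38.p6), at chr5:100572246-100572455 and chr15:75111972-75112221, minus strand, with bases inside the annotated gene left off. Capitals mark GAGGAA, the purine-rich core bound by the myeloid factor PU.1. Of 27025 mouse windows of 250 bases before a start, 23.1% hold this word on either strand, so its presence describes the letters and shows no binding.
Plac8: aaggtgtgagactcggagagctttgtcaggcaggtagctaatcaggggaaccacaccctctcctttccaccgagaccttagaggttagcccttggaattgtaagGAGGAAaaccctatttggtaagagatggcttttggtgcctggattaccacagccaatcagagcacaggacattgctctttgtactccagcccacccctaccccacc
Ly6c2: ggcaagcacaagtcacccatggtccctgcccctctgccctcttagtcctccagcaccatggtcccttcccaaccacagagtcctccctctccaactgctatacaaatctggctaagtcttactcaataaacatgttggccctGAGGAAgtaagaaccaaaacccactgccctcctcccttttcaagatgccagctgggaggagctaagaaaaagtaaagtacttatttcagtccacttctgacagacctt

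The selected cells were of 2 kinds by MHC class II, which the selection did not use. UMIs of H2-Aa, H2-Ab1, H2-Eb1 and Cd74, the class II chains and their chaperone, were summed per 10000 UMIs of each cell, and a line was drawn at 30 after the data were seen. Below it lay 91 knockout cells (60.7% of 150, interval 52.4 to 68.5%) and 62 control cells (67.4% of 92, interval 56.8 to 76.8%), with medians of 3.77 and 1.59. Above it lay 59 knockout and 30 control cells, with medians of 366 and 328. Between 15 and 60 lay 5 knockout and 5 control cells, so the line parted most cells clearly.

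**Figure D1:**
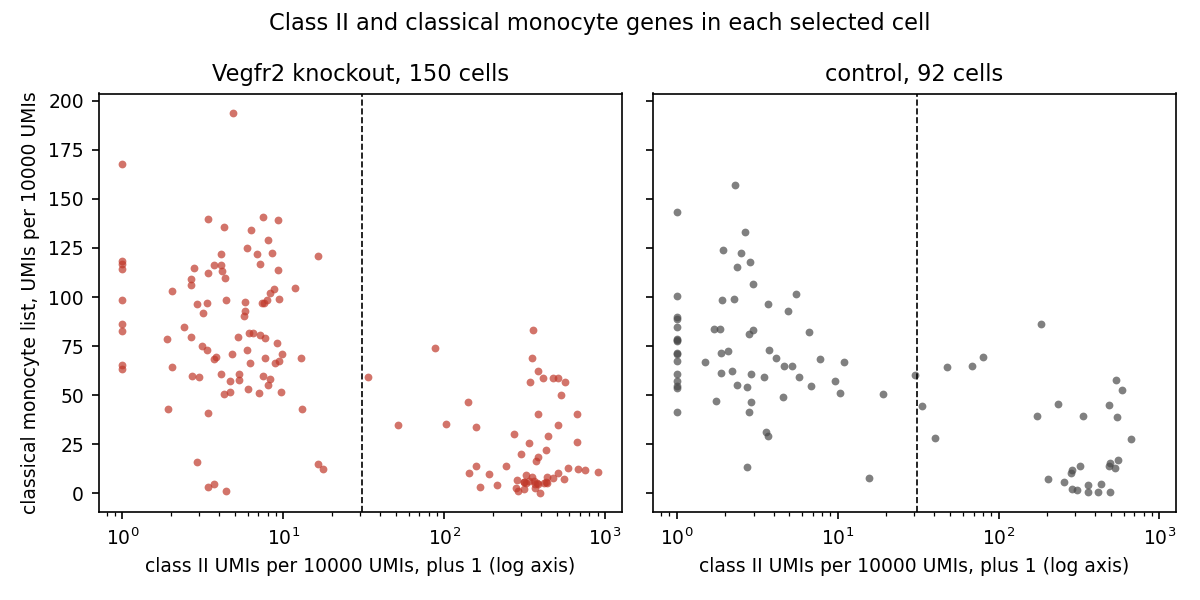
Each point is 1 selected cell, with its class II UMIs per 10000 UMIs plus 1 on a log axis across and its classical monocyte list per 10000 UMIs up, knockout cells at left and control cells at right, and the dashed line is the limit of 30. Cells left of the line have median classical list levels of 81.7 (knockout) and 68.7 (control), and cells right of it 12.6 and 16.3.

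Class II-low cells carried the genes of classical monocytes. The list of 19 such genes summed to 7709 and 7599 CPM in class II-low knockout and control cells, against 1982 and 2085 CPM in class II-high knockout and control cells. The selection used Ly6c2 and Lyz2, so their levels only describe the kinds. Ly6c2 had 535 CPM in class II-low knockout cells and 461 CPM in class II-low control cells, and was seen in 72 of 91 and 38 of 62 of them. In class II-high cells Ly6c2 had 27.7 and 55.8 CPM, in 6 of 59 knockout and 4 of 30 control cells. Lyz2 had 18696 and 21802 CPM in class II-low and 3767 and 3977 CPM in class II-high knockout and control cells.

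Class II-high cells carried more of the genes of dendritic cells than class II-low cells, but were mixed. The dendritic list summed to 1466 and 1493 CPM in class II-high and 642 and 654 CPM in class II-low knockout and control cells. In C1q myeloid cells it was 1206 and 859 CPM, and in Cd209a myeloid cells 2042 and 2188 CPM, above the class II-high cells. Fscn1, Ccl22, Cacnb3 and Il4i1 had no UMI in class II-high knockout cells. The classical list reached 83.1 and 86.4 per 10000 UMIs in single class II-high knockout and control cells. Flt3 had 98.5 CPM in class II-high knockout cells and 71.0 CPM in class II-high control cells, against 25.6 and 5.59 CPM in class II-low ones. Xcr1, a chemokine receptor of cross-presenting dendritic cells, had 73.5 and 159 CPM in class II-high cells and 0 and 4.20 CPM in class II-low cells. Clec9a, a receptor for dead cells on the same dendritic subset, was looked up after the values were seen and had 121 and 101 CPM in class II-high cells and 1.22 and 1.40 CPM in class II-low cells. Mgl2, a lectin of another dendritic subset, had 36.1 and 107 CPM in class II-high cells and no UMI in class II-low cells.

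Some class II-low cells had genes of plasmacytoid dendritic cells. Siglech, a lectin of these cells, reached 5 UMIs in 2 knockout and 2 control cells, with 29.2 and 99.3 CPM in class II-low knockout and control cells and no UMI in class II-high cells. The 3 cells richest in the plasmacytoid list held 66.2% of its UMIs in selected knockout cells and 70.3% in selected control cells. Results are therefore given for all selected cells and, where the kinds differ, for each.

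Selected cells took a larger share of the knockout library. They were 8.91% of kept knockout cells (interval 7.59 to 10.4%) and 3.95% of kept control cells (interval 3.20 to 4.82%), a ratio of 2.26 (interval 1.73 to 2.96). Class II-low cells were 5.41% of kept knockout and 2.66% of kept control cells, a ratio of 2.03 (interval 1.45 to 2.85). Class II-high cells were 3.51% and 1.29%, a ratio of 2.72 (interval 1.73 to 4.38). Of myeloid cells alone, the selected cells were 32.3% in the knockout library and 20.2% in the control library, a ratio of 1.60 (interval 1.22 to 2.09).

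**Figure D2:**
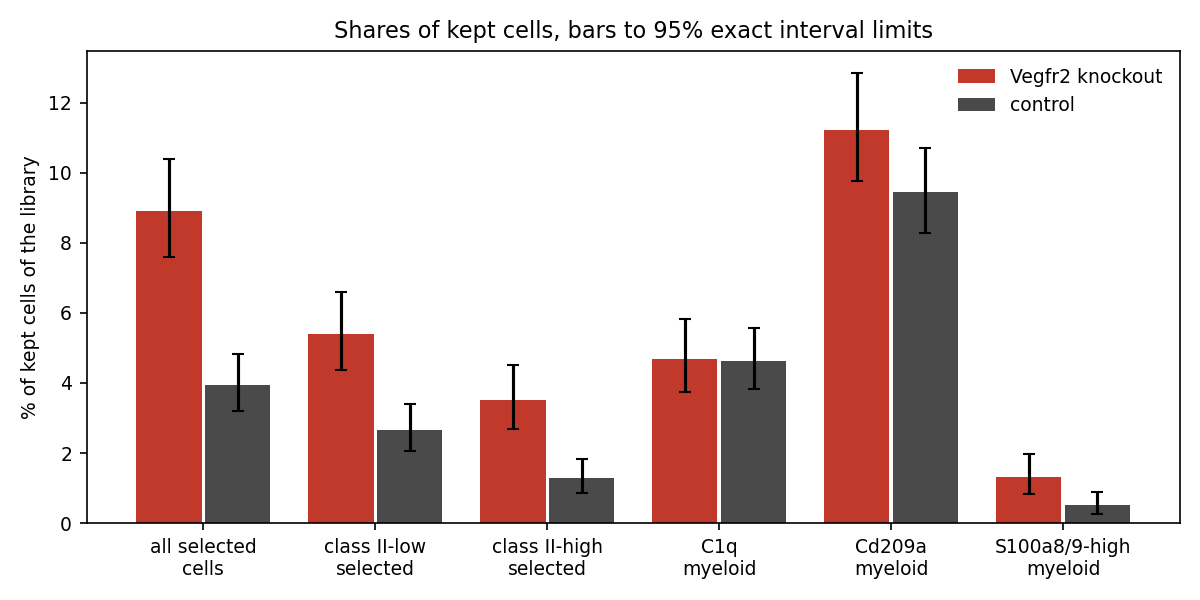
Bars give shares of kept cells in percent, knockout left of control, for the selected cells, their class II-low and class II-high kinds and other myeloid groups, with lines for the 95% exact intervals. The selected cells stand at 8.91% and 3.95%, and C1q myeloid cells at 4.69% and 4.64%.

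The other myeloid groups are given beside this. C1q myeloid cells, with 6 or more C1q UMIs, were 79 knockout and 108 control cells, a share ratio of 1.01 (interval 0.748 to 1.37). Cd209a myeloid cells, with a Cd209a UMI, were 189 and 220 cells, a ratio of 1.19 (interval 0.974 to 1.45). Cells with 50 or more UMIs of S100a8 and S100a9 were 22 and 12, a ratio of 2.54 (interval 1.20 to 5.62). Whether these ratios differ from that of the selected cells was not tested.

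The share ratio changed with depth. The limits count UMIs and knockout cells held fewer of them, so the selection was repeated on cells thinned to 2000 UMIs. It then took 95 of 1545 knockout cells (6.15%) and 94 of 2229 control cells (4.22%), a ratio of 1.46 (interval 1.08 to 1.96). Thinned class II-low cells had a ratio of 1.74 (interval 1.21 to 2.50) and thinned class II-high cells one of 0.989 (interval 0.563 to 1.71). Thinning also moved cells between groups. Of the selected cells with 2000 UMIs or more, 75 of 146 knockout cells and 65 of 92 control cells were selected again, and 7 of the 95 knockout and 17 of the 94 control cells had been Cd209a myeloid.

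The share ratio also differed by the sex of the cells. Among cells with Xist UMIs it was 2.58 (interval 1.86 to 3.60), from 89 knockout and 68 control cells. Among cells with Y-linked UMIs it was 1.32 (interval 0.659 to 2.74), from 25 knockout and 14 control cells. For class II-low cells it was 2.26 (interval 1.46 to 3.50) among Xist cells and 0.795 (interval 0.347 to 1.84) among Y cells, from 14 knockout and 13 control Y cells. A larger share of class II-low cells in the knockout library was thus not seen among Y cells. For class II-high cells the ratio was 3.11 (interval 1.86 to 5.30) among Xist cells. Among Y cells it was 8.12 (interval 1.18 to 350), from 11 knockout cells and 1 control cell. Depth and sex moved with the share, and their part in it was not tested.

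Gene levels were compared between genotypes over the summed UMIs of the selected cells, for genes with 20 or more UMIs over both libraries. Of 8541 genes, 397 (4.65%) were 2-fold or more higher in the knockout library and 346 (4.05%) 2-fold or more lower, with a median log2 ratio of -0.06. In class II-low cells 5.74% of 6897 genes were 2-fold or more higher and 4.26% 2-fold or more lower, with a median of -0.03. In class II-high cells the shares were 5.41% and 5.85% of 6157 genes, with a median of -0.07. Counts of genes past 2-fold are read against these shares.

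The genes of non-classical monocytes were lower in the knockout library. Of 12 measured genes of that list, 12 were below the control level and 8 of them 2-fold or more, with a median log2 ratio of -1.55. In class II-low cells 9 of 12 were 2-fold or more lower, with a median of -1.61. Cx3cr1, the fractalkine receptor, had 112 CPM in class II-low knockout cells and 305 CPM in class II-low control cells, a ratio of 0.368 (interval 0.285 to 0.471). It was seen in 40 of 91 knockout and 47 of 62 control class II-low cells, and after thinning in 16.9% and 41.9% of them, against 0.570% and 0.234% of non-myeloid cells (1.19% and 1.83% unthinned).

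Other members of the list lay lower still. Adgre4, an adhesion receptor of the EGF-TM7 family, had 20.7 CPM in class II-low knockout cells and 169 CPM in class II-low control cells, a ratio of 0.122 (interval 0.0690 to 0.204). Treml4, an immunoglobulin-like receptor, had 19.5 and 78.3 CPM, a ratio of 0.249 (interval 0.133 to 0.440). Ace, angiotensin-converting enzyme, had 25.6 and 88.1 CPM, a ratio of 0.290 (interval 0.168 to 0.482). After thinning Treml4 was seen in 6.74% and 19.4% of class II-low knockout and control cells (12.1% and 40.3% unthinned), against 0.0951% and 0.234% of non-myeloid cells (0.341% and 0.721% unthinned). Ace was seen in 2.25% and 14.5% of class II-low knockout and control cells (8.79% and 33.9% unthinned), against 1.62% and 2.63% of non-myeloid cells (4.10% and 8.26% unthinned). The Ace share in class II-low knockout cells thus lay close to that of non-myeloid knockout cells.

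Pglyrp1, which binds bacterial peptidoglycan, had 64.6 CPM in class II-low knockout cells and 224 CPM in class II-low control cells, a ratio of 0.289 (interval 0.207 to 0.396). Ear2, a ribonuclease, had 80.4 and 173 CPM, a ratio of 0.464 (interval 0.339 to 0.630). Spn, which encodes CD43, had 21.9 and 54.5 CPM, a ratio of 0.402 (interval 0.216 to 0.720). Itgal, the alpha chain of the integrin LFA-1, had 149 and 287 CPM, a ratio of 0.518 (interval 0.411 to 0.652), and Pou2f2, a transcription factor, had 129 and 248 CPM, a ratio of 0.522 (interval 0.406 to 0.667).

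Nr4a1, on which non-classical monocytes depend, was lower in class II-low and higher in class II-high knockout cells. It had 325 CPM in class II-low knockout cells and 586 CPM in class II-low control cells, a ratio of 0.555 (interval 0.474 to 0.649). In class II-high cells it had 257 and 127 CPM, a ratio of 2.02 (interval 1.54 to 2.68). Whether the kinds differ was not tested. It is also an early response gene that cell dissociation can raise. Eno3, a muscle enolase, had a ratio of 0.238 (interval 0.114 to 0.458) in class II-low cells and of 2.46 (interval 0.198 to 129) in class II-high cells, the second from 3 knockout and 1 control UMIs.

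The median of the non-classical list was 0.17 over 7 genes in C1q myeloid cells, -0.58 over 11 genes in Cd209a myeloid cells and 0.69 over 11 genes in non-myeloid cells. In class II-high selected cells it was -0.50 over 10 genes. It was -0.95 among Xist cells and -2.09 among Y cells. Single genes could differ from the median of their group. Adgre4 had a ratio of 0.227 (interval 0.0805 to 0.517) in C1q myeloid and 0.394 (interval 0.268 to 0.567) in Cd209a myeloid cells. Cx3cr1 had ratios of 1.26 and 0.530 there. Fewer non-classical cells among those selected and less RNA of these genes per cell cannot be told apart in summed counts.

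**Figure D3:**
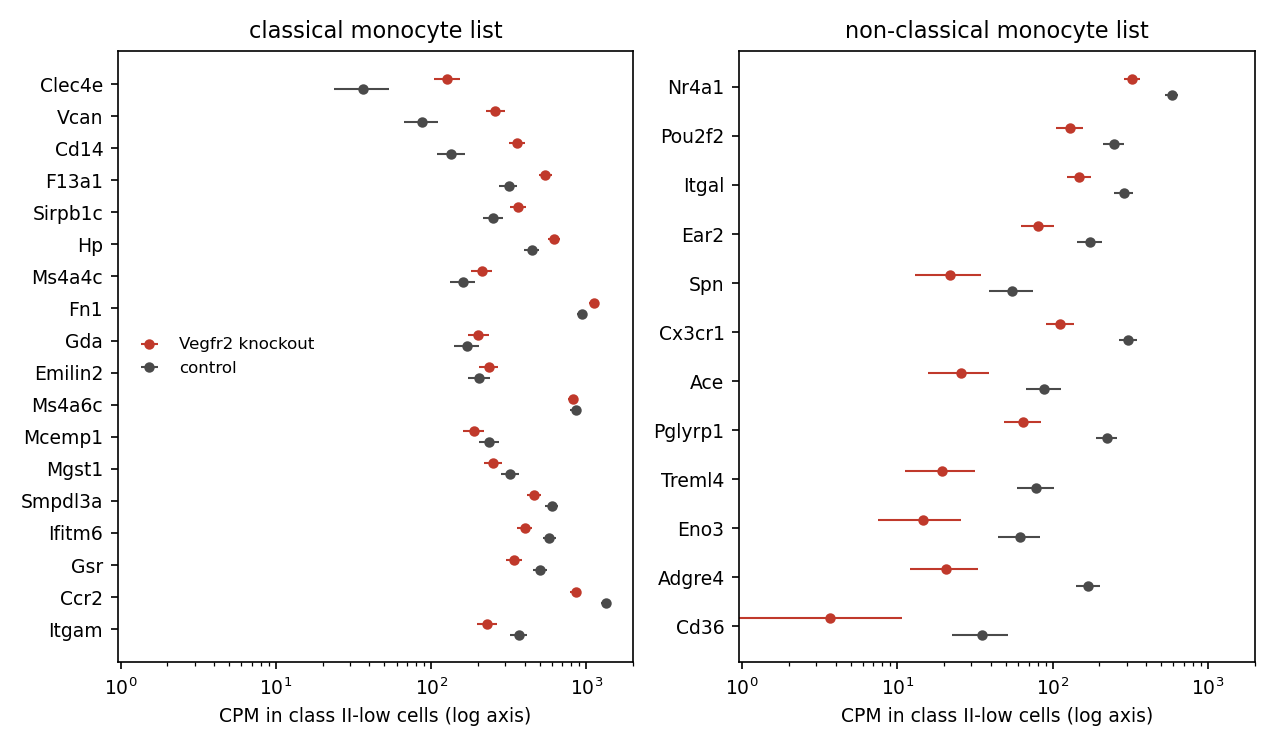
Points are CPM in class II-low cells on a log axis with 95% exact intervals, knockout in red above control in grey, for genes of the classical list (left) and the non-classical list (right), ordered by ratio. All 12 measured non-classical genes lie lower in the knockout library, while the classical genes drawn lie on either side, from Clec4e at the top, higher, to Itgam at the bottom, lower.

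The classical monocyte genes did not move as a whole. Of 19 measured genes, 3 were 2-fold or more higher in the knockout library and 0 were 2-fold or more lower, with a median log2 ratio of 0.25 in all selected cells and 0.25 in class II-low cells. The higher ones were Cd14, the co-receptor for lipopolysaccharide, Clec4e, a receptor for mycobacterial glycolipid, and Vcan, the proteoglycan versican. Cd14 had 358 CPM in class II-low knockout cells and 134 CPM in class II-low control cells, a ratio of 2.67 (interval 2.11 to 3.40). Clec4e had 127 and 36.4 CPM, a ratio of 3.48 (interval 2.25 to 5.58), and Vcan had 259 and 86.7 CPM, a ratio of 2.99 (interval 2.25 to 4.04).

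Other classical genes moved less or the other way. Ccr2, which brings monocytes into tissue, had 850.2 CPM in class II-low knockout cells and 1327 CPM in class II-low control cells, a ratio of 0.641 (interval 0.580 to 0.707). Itgam, the alpha chain of the integrin Mac-1, had 230.2 and 365 CPM, a ratio of 0.631 (interval 0.520 to 0.764), and Gsr, glutathione reductase, 343 and 502 CPM, a ratio of 0.684 (interval 0.583 to 0.802). These were lower in the knockout library, whereas the next were higher. F13a1, coagulation factor XIII, had 543 and 315 CPM, a ratio of 1.73 (interval 1.47 to 2.04). Hp, haptoglobin, had 618 and 443 CPM, a ratio of 1.39 (interval 1.21 to 1.61). Fn1, fibronectin, had 1117 and 933 CPM, a ratio of 1.20 (interval 1.08 to 1.33). The list median was -0.39 among Y cells.

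Cd14 was higher in the Cd209a myeloid cells of the knockout library too, with a ratio of 4.07 (interval 3.32 to 5.01). In C1q myeloid cells no difference was detectable at this depth, at 126 and 132 CPM in knockout and control cells. After thinning it was seen in 34.8% and 16.1% of class II-low knockout and control cells, against 2% and 0.819% of non-myeloid cells (4.44% and 2.50% unthinned). Vcan is also a gene of pulp mesenchyme, and after thinning it was seen in 36.0% and 11.3% of class II-low knockout and control cells, against 30.4% and 32.5% of non-myeloid cells (38.4% and 45.5% unthinned). The Vcan share in control cells therefore lay below that of non-myeloid cells, and the part of free RNA in its level was not tested.

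Genes of bone marrow progenitors were mostly higher in the knockout library, at low levels. The list summed to 168 and 68.1 CPM in selected knockout and control cells, against 446 and 653 CPM in knockout and control non-myeloid cells. Of 5 measured genes, 3 were 2-fold or more higher and 0 were 2-fold or more lower, and in class II-low cells 4 of 4 were 2-fold or more higher. Prtn3, proteinase 3 of early myeloid granules, had 82.8 CPM in class II-low knockout cells and 22.4 CPM in class II-low control cells, a ratio of 3.70 (interval 2.12 to 6.84). Cdk6, a kinase of cell cycle entry, had 54 UMIs in 14 class II-low knockout cells and 3 UMIs in 2 class II-low control cells, a ratio of 15.7 (interval 5.09 to 78.4). Cd34, a stem cell surface protein, had 21 UMIs in 4 selected knockout cells and 5 UMIs in 4 selected control cells. In knockout and control non-myeloid cells Cd34 had 74.2 and 183 CPM and Cdk6 65.3 and 48.6 CPM, against 13.6 and 3.83 CPM and 52.5 and 19.9 CPM in selected cells, and the part of free RNA was not tested. Prtn3 had 3.96 and 4.06 CPM in non-myeloid cells, below its level in class II-low cells. The 3 cells richest in the list held 42.1% of its UMIs in selected knockout cells and 30.3% in selected control cells.

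Genes of G2 and mitosis were mostly higher in class II-low knockout cells and mostly lower in class II-high knockout cells, a difference between the kinds that was not tested. In class II-low cells the S phase list had a median log2 ratio of 0.76, with 4 of 13 genes 2-fold or more higher, and the G2 and mitosis list one of 0.80, with 4 of 17. In class II-high cells the G2 and mitosis list had a median of -0.69, with 6 of 19 genes 2-fold or more lower, and the S phase list one of 0.42. Outside the selected cells both lists were lower in the knockout library. The G2 and mitosis median was -0.54 in C1q myeloid, -0.62 in Cd209a myeloid and -1.03 in non-myeloid cells. The S phase median was -0.52, -0.55 and -0.84 in these groups. Cdc20, an activator of the anaphase-promoting complex, had 17.1 and 9.79 CPM in class II-low and 16.6 and 82.9 CPM in class II-high knockout and control cells, with ratios of 1.74 (interval 0.658 to 5.10) and 0.201 (interval 0.0972 to 0.383). Stmn1, a microtubule regulator, had 298 and 164 CPM in class II-low cells, a ratio of 1.82 (interval 1.46 to 2.29). The 3 cells richest in the G2 and mitosis list held 19.3% of its UMIs in selected knockout cells and 39.6% in selected control cells.

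Genes of the hypoxia response and glycolysis were higher in the knockout library in both kinds of cells. Of 26 measured genes, 25 were above the control level and 8 of them 2-fold or more, with a median log2 ratio of 0.77. In class II-low cells 9 of 24 were 2-fold or more higher, with a median of 0.79, and in class II-high cells 9 of 23, with a median of 0.69. The list summed to 5664 and 3345 CPM in selected knockout and control cells, and its 3 richest cells held 7.42% and 10.8% of its UMIs.

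Hilpda, a lipid droplet protein induced by hypoxia, had 40.9 CPM in selected knockout cells and 4.59 CPM in selected control cells, a ratio of 8.90 (interval 3.87 to 25.2). Ankrd37, an ankyrin repeat protein, had 20.1 and 3.06 CPM, a ratio of 6.57 (interval 2.32 to 25.6). Gapdh, the glycolytic enzyme of highest level in the list, had 2044 and 1184 CPM, a ratio of 1.73 (interval 1.62 to 1.84). At the other end, Hif1a, the hypoxia-inducible factor itself, had 49.9 and 47.5 CPM, a ratio of 1.05 (interval 0.743 to 1.49), and Hk2, a hexokinase, had 85.6 and 98.0 CPM, a ratio of 0.874 (interval 0.680 to 1.12). The list also held Slc2a1, Eno1, Aldoa, Ndrg1, Bnip3 and Vegfa among the genes past 2-fold, named here after their values were seen.

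Vegfa, the ligand of VEGFR2, had 49.3 CPM in selected knockout cells and 12.2 CPM in selected control cells, a ratio of 4.02 (interval 2.33 to 7.39), in 31 of 150 and 10 of 92 cells. After thinning it was seen in 10.3% and 4.35% of selected knockout and control cells, against 14.7% and 7.54% of non-myeloid cells. Its share in selected cells lay below that of non-myeloid cells in both libraries (20.7% and 10.9% against 31.7% and 26.7% unthinned). The non-myeloid cells do not measure free RNA alone, so whether the selected cells themselves express Vegfa was not settled.

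The other cells of the knockout library showed the same direction for the hypoxia and glycolysis list. Its median was 0.90 in C1q myeloid cells, with 9 of 21 genes 2-fold or more higher (7.29% of 8118 genes, 5.25% lower). It was 0.59 in Cd209a myeloid cells, with 9 of 27 (4.07% of 9910 genes, 6.01% lower), and 0.68 in non-myeloid cells, with 6 of 28 (6.25% of 14950 genes, 4.07% lower). Of 25 measured oxidative phosphorylation genes, 0 were 2-fold or more higher and 0 were 2-fold or more lower in the selected cells, with a median of -0.01. Genotype, library and software cannot be told apart in a difference that every group of cells shows. The hypoxia and glycolysis median was 0.83 among Xist cells and 0.30 among Y cells.

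**Figure D4:**
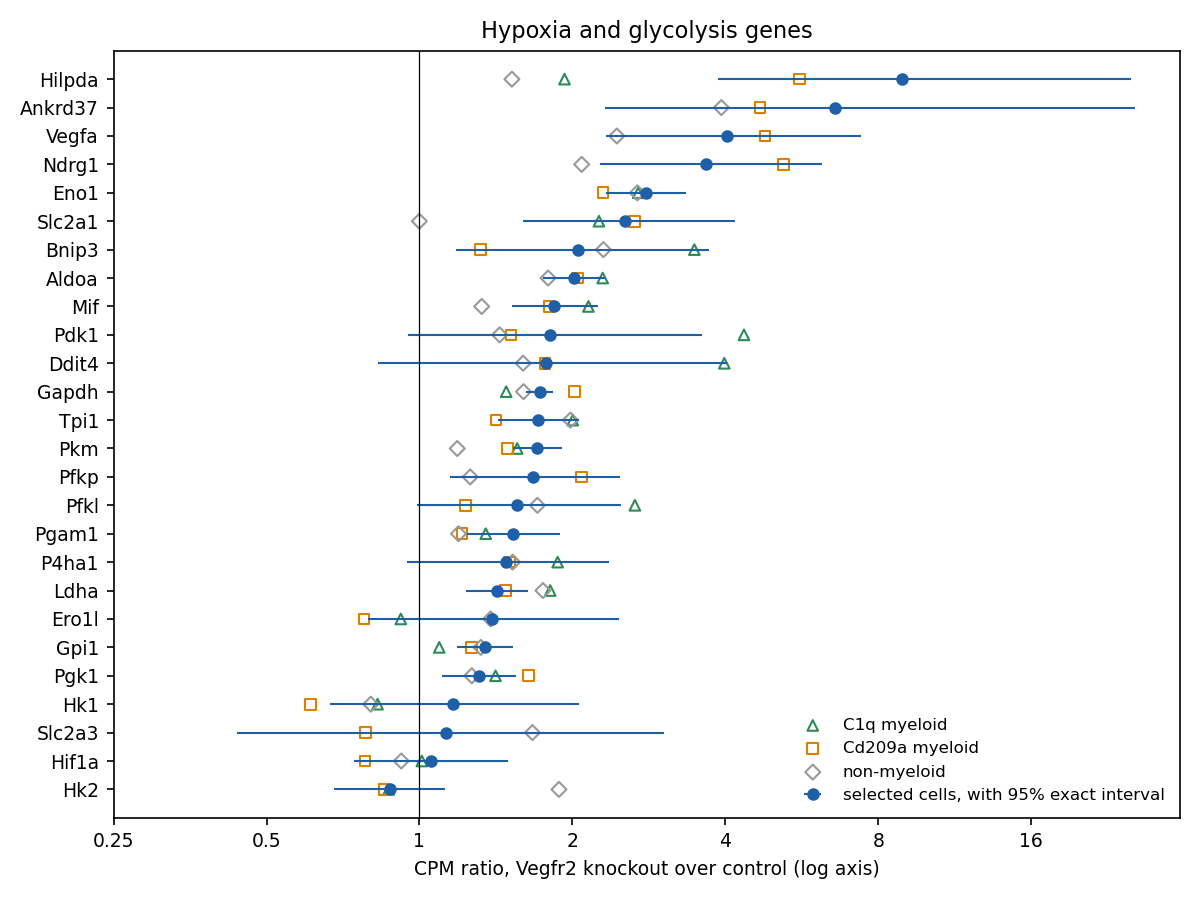
Filled points are knockout over control CPM ratios of the 26 measured hypoxia and glycolysis genes in selected cells, on a log axis with 95% exact intervals, and open symbols the same ratios in C1q myeloid, Cd209a myeloid and non-myeloid cells where measured. Of the filled points, 25 lie right of 1 and 1 left of it, from 0.874 for Hk2 to 8.90 for Hilpda.

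ACGTG, the core bound by hypoxia-inducible factors, was found on either strand in the 250 bases before the start of 11 of 25 genes of this list with a RefSeq sequence (44.0%), against 16.6% of 27025 windows. The list was drawn up from known responders, so this describes the genes chosen. Of its genes 2-fold or more higher, Ankrd37, Slc2a1 and Bnip3 held the word. Bnip3, a mitochondrial protein of the hypoxia response, had 29.8 CPM in selected knockout cells and 14.5 CPM in selected control cells, a ratio of 2.05 (interval 1.18 to 3.71). Its window is shown as an example, with bases inside the annotated gene left off (RefSeq, GRCm38.p6, chr7:138909520-138909756, minus strand). Capitals mark ACGTG, which overlaps its own reverse complement there, and GAGGAA on the strand not printed.
Bnip3: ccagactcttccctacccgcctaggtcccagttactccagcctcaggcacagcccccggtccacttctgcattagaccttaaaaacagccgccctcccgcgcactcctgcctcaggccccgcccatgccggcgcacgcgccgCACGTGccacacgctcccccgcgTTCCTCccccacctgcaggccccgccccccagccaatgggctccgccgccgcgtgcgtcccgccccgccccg

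Some inflammatory genes were higher in the knockout library. Of 17 measured genes, 4 were 2-fold or more higher and 0 were 2-fold or more lower, with a median log2 ratio of 0.70 in all selected cells and 0.44 in class II-low cells. The median was 0.80 in non-myeloid cells, with 8 of 21 genes 2-fold or more higher (6.25% of all genes) and 0 lower. It was 0.47 in Cd209a myeloid cells, with 5 of 20 higher (4.07% of all genes) and 1 lower. In C1q myeloid cells it was -0.04, with 0 of 16 higher (7.29% of all genes) and 2 lower. Ptgs2, the inducible cyclooxygenase, had 95.3 CPM in selected knockout cells and 9.18 CPM in selected control cells, a ratio of 10.4 (interval 5.77 to 20.5), in 37 of 150 and 4 of 92 cells. Ier3, an early response gene, had 982 and 280.1 CPM, a ratio of 3.50 (interval 3.12 to 3.94). Nfkbia, the inhibitor of NF-kappaB, named after its values were seen, had 736 and 322 CPM, a ratio of 2.28 (interval 2.04 to 2.56), and Clec4e was the other of the 4. Nfkbiz, another regulator of NF-kappaB, was lower, at 85.0 and 126 CPM, a ratio of 0.673 (interval 0.531 to 0.851).

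The inflammatory median was 1.03 among Xist cells and -0.19 among Y cells, and the ratio of Ier3 was 0.605 among Y cells. The higher level was not seen among the Y cells. Of these, 11 of 25 knockout and 1 of 14 control cells were class II-high, and the part of this in the Y values was not tested. Immediate early genes, which dissociation can raise, had a median of 0.26 in selected cells, 0.05 in class II-low and 0.63 in class II-high cells. Their median was 0.76 among Xist cells and -1.28 among Y cells, so they moved with the inflammatory genes. Hspa8, the heat shock protein of highest level in that list, had 2958 and 2264 CPM in selected knockout and control cells, a ratio of 1.31 (interval 1.25 to 1.37). Their part in the inflammatory values was not tested.

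Of 9 measured chemokine genes, 0 were 2-fold or more higher and 0 were 2-fold or more lower, with a median of 0.13. Cxcl2, which draws neutrophils, had 786 CPM in selected knockout cells and 394 CPM in selected control cells, a ratio of 1.99 (interval 1.80 to 2.21), in 49 and 16 cells. In class II-high cells it had 342 UMIs in 9 knockout cells and 1 in 1 control cell. Ccl4, a chemokine of activated leukocytes, had 654 and 432 CPM, a ratio of 1.51 (interval 1.36 to 1.68). Ccl2, the ligand of CCR2, had 72.0 and 52.0 CPM, a ratio of 1.38 (interval 1.01 to 1.90). Ccl6 was lower, at 333 and 426 CPM, a ratio of 0.782 (interval 0.692 to 0.883).

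Of 10 measured receptors for chemokines and other attractants, 3 were 2-fold or more higher and 1, Cx3cr1, was 2-fold or more lower, with a median of 0.06. Fpr2, a receptor for formyl peptides, had 70.6 CPM in class II-low knockout cells and 28.0 CPM in class II-low control cells, a ratio of 2.53 (interval 1.5 to 4.43), and no UMI in class II-high cells. C5ar1, the receptor for complement fragment C5a, had 79.2 and 39.2 CPM, a ratio of 2.02 (interval 1.28 to 3.27). Ccr7, which guides mature dendritic cells to lymph nodes, had 61 UMIs in 9 selected knockout cells and 1 UMI in 1 selected control cell. Of the knockout UMIs 51 lay in 4 class II-high cells. Ccr1, a receptor for Ccl3 and related ligands, had 137 and 89.6 CPM in all selected cells, a ratio of 1.54 (interval 1.22 to 1.94).

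Of 16 measured genes of adhesion and passage through the vessel wall, 0 were 2-fold or more higher and 1 was 2-fold or more lower, with a median of -0.19. The lower one was Itga4, the alpha chain of the integrin VLA-4, with 187 CPM in selected knockout cells and 381 CPM in selected control cells, a ratio of 0.490 (interval 0.422 to 0.568). Itgax, which encodes CD11c, had 20.8 and 39.8 CPM, a ratio of 0.521 (interval 0.325 to 0.825). Icam1, a ligand of LFA-1, had 97.3 and 57.4 CPM, a ratio of 1.69 (interval 1.28 to 2.27), and Cd47, the signal that restrains phagocytosis, had 348 and 411 CPM, a ratio of 0.847 (interval 0.750 to 0.957).

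Interferon-stimulated genes were lower in the knockout library, and much of this came from 1 control cell. Of 30 measured genes 9 were 2-fold or more lower and 0 were 2-fold or more higher, with a median log2 ratio of -0.79. In class II-high cells 17 of 26 were 2-fold or more lower, with a median of -1.30. In class II-low cells 4 of 25 were 2-fold or more higher and 0 were 2-fold or more lower, with a median of -0.20. A single control cell held 26.7% of the interferon UMIs of class II-high control cells. Without the richest cell of each library, 6 of 20 genes in class II-high cells were 2-fold or more lower, with a median of -0.77. Over all selected cells it was then 2 of 27 genes, with a median of -0.32. Whether the kinds differ was not tested.

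Ifit3, an antiviral protein with a close copy in Ifit3b, had no UMI in class II-high knockout cells, which allows up to 4.16 CPM, and 60 UMIs in 3 class II-high control cells. In class II-low cells Ifit3 had 26.8 and 15.4 CPM, a ratio of 1.74 (interval 0.810 to 3.98). Irf7, the master factor of this response, had 147 and 95.1 CPM in class II-low knockout and control cells, a ratio of 1.55 (interval 1.14 to 2.12), and 61.0 and 101 CPM in class II-high ones, a ratio of 0.601 (interval 0.398 to 0.902). Ifitm3, the member of highest level, had 2079 and 2364 CPM in all selected cells, a ratio of 0.879 (interval 0.837 to 0.924). The 3 cells richest in the list held 9.24% of its UMIs in selected knockout cells and 15.7% in selected control cells. The list median was -0.47 in C1q myeloid and -0.52 in Cd209a myeloid cells.

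Antigen presentation, lysosome and lineage factor genes had few differences past 2-fold. The MHC class II list had a median of 0.10 and 0 of 10 genes 2-fold or more higher, the MHC class I list -0.10 and 0 of 10, and the lysosome and cathepsin list 0.01 and 0 of 17. None of these genes was 2-fold or more lower. In class II-low cells, which were set apart by genes of this list, the MHC class II median was 0.66. There 6 of 6 measured genes were above the control level, 1 of them 2-fold or more. The list summed to 713 and 540 CPM in these knockout and control cells, against 873 and 266 CPM in non-myeloid cells. Cd74, the class II chaperone, had 18993 CPM in class II-high knockout cells and 14957 CPM in class II-high control cells, a ratio of 1.27 (interval 1.24 to 1.30), and H2-Ab1 had 4922 and 6510.3 CPM, a ratio of 0.756 (interval 0.722 to 0.792). Ctsl, cathepsin L, had 171 and 97.2 CPM in all selected cells, a ratio of 1.76 (interval 1.42 to 2.19).

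Transcription factors of the lineage had a median of -0.01, with 0 of 14 genes past 2-fold upward and 0 downward. Cebpb, a factor of monocyte maturation, had 1564 and 1216 CPM in selected knockout and control cells, a ratio of 1.29 (interval 1.21 to 1.37). Klf2, a factor of quiescence in leukocytes, had 167 and 263 CPM, a ratio of 0.637 (interval 0.540 to 0.751).

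**Figure D5:**
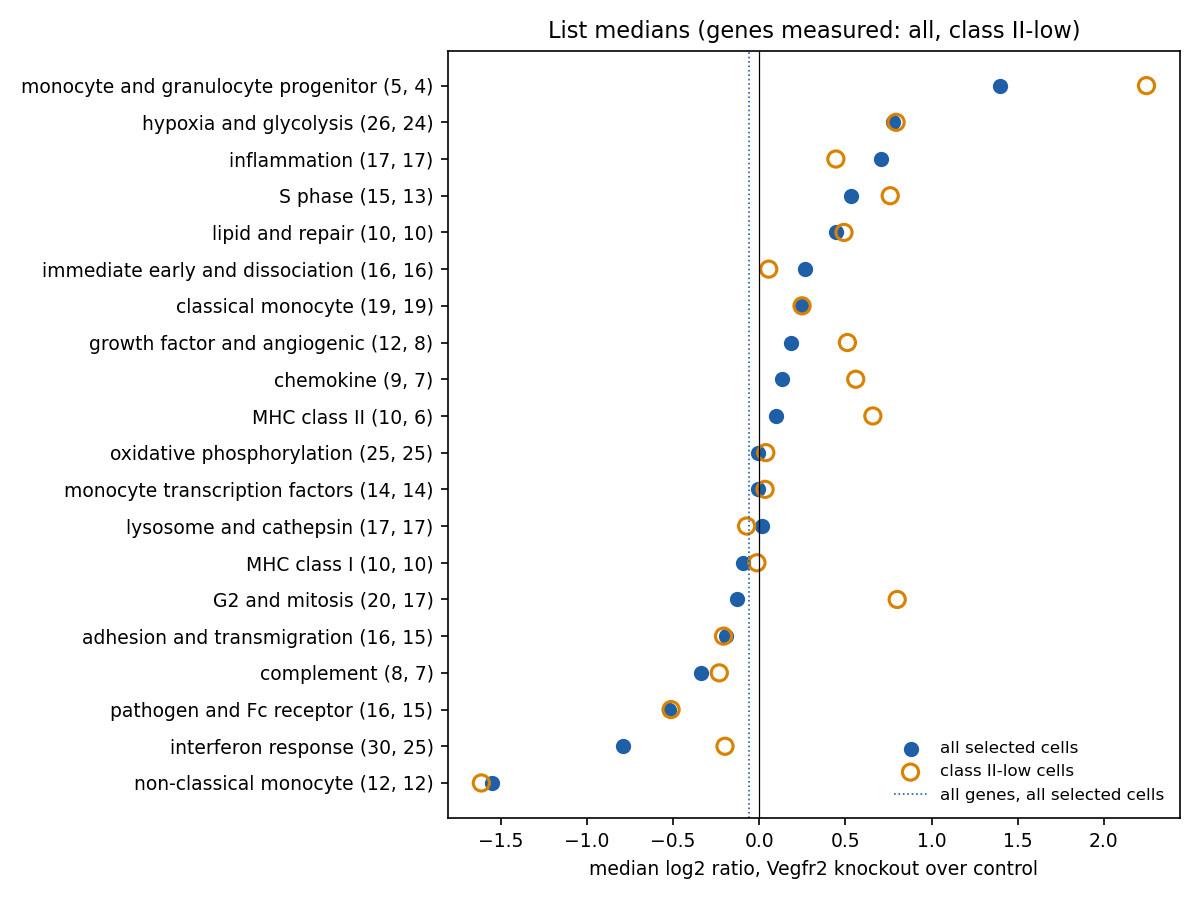
Filled points are median log2 ratios, knockout over control, of gene lists in all selected cells and open circles those in class II-low cells, with the number of measured genes in brackets, and the dotted line is the median of all genes at -0.06. The non-classical list lies at -1.55, the progenitor list at 1.40 and the hypoxia and glycolysis list at 0.77, and the G2 and mitosis list lies at -0.13 in all selected cells and 0.80 in class II-low cells.

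Of 16 measured receptors for microbes and antibodies, 3 were 2-fold or more higher and 2 were 2-fold or more lower, with a median of -0.53. Clec4d, a C-type lectin partner of Clec4e, had 60.3 CPM in selected knockout cells and 26.8 CPM in selected control cells, a ratio of 2.25 (interval 1.51 to 3.42). Fcgr4, an activating antibody receptor, had 23.3 and 67.4 CPM, a ratio of 0.347 (interval 0.228 to 0.516), and Fcgr3 had 188 and 285 CPM, a ratio of 0.659 (interval 0.563 to 0.770). Cd36, a scavenger receptor also in the non-classical list, had 11.7 and 45.9 CPM, a ratio of 0.254 (interval 0.141 to 0.436).

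The iron and haem list had a median of -0.12, with 0 of 8 genes 2-fold or more higher and 0 lower. Fth1, the ferritin heavy chain, had 7115 CPM in selected knockout cells and 3891 CPM in selected control cells, a ratio of 1.83 (interval 1.77 to 1.89). Hmox1, haem oxygenase, had 198 and 110.2 CPM, a ratio of 1.79 (interval 1.47 to 2.20). Its ratio was 1.18 (interval 0.938 to 1.48) in class II-low cells and 14.1 (interval 6.62 to 35.7) in class II-high cells. In C1q myeloid, Cd209a myeloid and non-myeloid cells the Hmox1 ratio was 3.85, 5.36 and 2.04. Slc11a1, an iron transporter of phagosomes, had 38.3 and 75.8 CPM in selected knockout and control cells, a ratio of 0.505 (interval 0.359 to 0.704). The lipid and repair list had a median of 0.44, with 1 of 10 genes 2-fold or more higher and 2 lower. Fabp5, a fatty acid carrier, had 166 and 63.5 CPM, a ratio of 2.61 (interval 2.03 to 3.39). Complement genes had a median of -0.34, with 1 of 8 higher by 2-fold or more and 0 lower by as much.

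Resident macrophage genes were mostly lower in the knockout library. The list summed to 2882 and 3819 CPM in selected knockout and control cells, of which Apoe made most, against 32429 and 24549 CPM in C1q myeloid and 1719.6 and 1483 CPM in non-myeloid knockout and control cells. Of 10 measured genes, 8 were below and 2 above the control level, 1 was 2-fold or more higher and 2 were 2-fold or more lower, with a median of -0.42. Ms4a7, a membrane protein of macrophages, had 7.78 CPM in selected knockout cells and 25.3 CPM in selected control cells, a ratio of 0.308 (interval 0.145 to 0.612). Trem2, a lipid receptor, had 68.1 and 57.4 CPM, a ratio of 1.19 (interval 0.874 to 1.62), and Apoe, apolipoprotein E, had 2359 and 3082 CPM, a ratio of 0.765 (interval 0.731 to 0.801). Of 12 measured dendritic cell genes, 1 was 2-fold or more higher and 2 were 2-fold or more lower, with a median of -0.02. Napsa, an aspartic protease, had 501 and 477 CPM, a ratio of 1.05 (interval 0.944 to 1.17).

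Genes of growth factors and vessel growth had a median of 0.18, with 3 of 12 measured genes higher by 2-fold or more and 2 lower by as much. Thbs1, the angiogenesis inhibitor thrombospondin 1, had 1099 CPM in selected knockout cells and 418 CPM in selected control cells, a ratio of 2.63 (interval 2.39 to 2.90). Plaur, the urokinase receptor, had 412 and 154 CPM, a ratio of 2.68 (interval 2.28 to 3.16). Its ratio was 1.93 (interval 1.62 to 2.30) in class II-low cells and 17.5 (interval 9.32 to 37.0) in class II-high cells. Thbs1 had ratios of 3.02 in C1q myeloid, 1.86 in Cd209a myeloid and 2.22 in non-myeloid cells. Plaur had ratios of 1.45 (interval 0.603 to 3.28), 5.82 and 3.41 in these groups. The list median there was -0.12, 0.84 and 0.07. Pdgfb, a growth factor for mural cells, had 8 UMIs in selected knockout cells and 29 in selected control cells, a ratio of 0.234 (interval 0.0923 to 0.524). Igf1, insulin-like growth factor 1, had no UMI in selected knockout cells, which allows up to 1.95 CPM, and 9.18 CPM in selected control cells.

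Of VEGF receptors, Nrp1, a co-receptor, had 46.7 CPM in selected knockout cells and 52.0 CPM in selected control cells, a ratio of 0.897 (interval 0.635 to 1.27). Flt1, which encodes VEGFR1, had 13.6 and 17.6 CPM, a ratio of 0.774 (interval 0.407 to 1.46). Kdr had 11 UMIs in 10 selected knockout cells and 2 UMIs in 2 selected control cells, a ratio of 4.66 (interval 1.02 to 43.3). No difference in Nrp1 or Flt1 was detectable at this depth.

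The 12 highest and 12 lowest ratios were taken by the interval bound nearest to 1. Higher beside Ptgs2, Hilpda and Ier3 were Hist1h2ap, Gm10076, Gstp1, 9130230L23Rik, Fam46c, Qtrt1, Nr4a2, Lsmem1 and Crem. Nr4a2, a nuclear receptor related to Nr4a1, had 280.2 CPM in selected knockout cells and 57.4 CPM in selected control cells, a ratio of 4.88 (interval 3.81 to 6.32), and a ratio of 0.883 among Y cells. Crem, a factor of cyclic AMP signalling, had 82.4 and 13.8 CPM, a ratio of 5.98 (interval 3.63 to 10.4). Hist1h2ap, one of many near-identical histone genes, had 111 and 5.36 CPM, with 29.2% of its knockout UMIs in 1 cell.

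Lower beside Adgre4, Treml4, Pglyrp1, Ace, Cd36 and Cx3cr1 were AY036118, Rasgrp1, Mrc1, Lst1, Abcg3 and Fam26f. Lst1, a leukocyte membrane protein, had 298 CPM in selected knockout cells and 865 CPM in selected control cells, a ratio of 0.344 (interval 0.308 to 0.384). Mrc1, the mannose receptor of tissue macrophages, had 5.19 and 32.1 CPM, in 6 knockout and 10 control cells, a ratio of 0.161 (interval 0.0654 to 0.348). Rasgrp1, an activator of Ras, was seen in 2 knockout and 17 control cells, a ratio of 0.0820 (interval 0.0160 to 0.263).

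Many of these genes differed in the same direction in every group of cells measured. Gm10076, with a ratio of 11.6 in selected cells, had ratios of 6.73 in C1q myeloid, 11.9 in Cd209a myeloid and 6.87 in non-myeloid cells. Gstp1, with 13.1, had ratios of 4.14, 23.4 and 17.5 in these groups, and AY036118, with 0.121, ratios of 0.181, 0.141 and 0.199. Genotype, library and Cell Ranger version cannot be told apart for them. Cx3cr1, by contrast, had ratios of 1.26, 0.530 and 0.882, and Mrc1 of 1.43, 0.922 and 0.858.

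Against C1q myeloid cells, the selected cells had more of several genes of blood monocytes and less of genes of resident macrophages. By the 2-fold rule 11.7% of 8084 genes were higher and 22.8% lower in the knockout library, and 6.34% of 8770 higher and 13.3% lower in the control library. The selection used this contrast, so nothing is read from the counts. Hp had 338 and 4.05 CPM in selected and C1q myeloid cells of the knockout library, and 244 and 3.68 CPM in those of the control library. F10, coagulation factor X, had 139 and 4.05 CPM and 71.2 and 2.94 CPM in the same pairs. Pf4, a chemokine of platelets and resident macrophages, had 5.84 and 2931 CPM in selected and C1q myeloid cells of the knockout library, and 6.89 and 2182 CPM in those of the control library. Stab1, a scavenger receptor, had 13.6 and 1814 CPM and 5.36 and 1076 CPM.

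Against Cd209a myeloid cells, 10.4% of 9054 genes were 2-fold or more higher and 4.38% lower in the knockout library, and 7.74% of 9727 higher and 5.88% lower in the control library, again a contrast the selection used. Apoe had 2359 and 88.3 CPM in selected and Cd209a myeloid cells of the knockout library, and 3082 and 232 CPM in those of the control library. Irf8, a transcription factor of monocytes and dendritic cells, had 699.7 and 61.1 CPM and 709.5 and 42.5 CPM. Clec10a, a galactose-binding lectin, had 49.3 and 482 CPM and 54.3 and 574 CPM, so it was lower in the selected cells of both libraries.

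RNA of the other cell types given below was mostly low. The highest sum was that of glia in selected knockout cells and of pulp mesenchyme in selected control cells. The 7 glial genes summed to 1326 and 173 CPM in selected knockout and control cells, and 6 of 6 measured ones were 2-fold or more higher. A single knockout cell held 65.3% of the glial UMIs, and without the 3 richest cells of each library the sums were 267 CPM in knockout and 164 CPM in control cells. The list had a median of 3.06 in selected cells and 1.14 in non-myeloid cells. Without the 2 selected knockout cells that Scrublet called doublets it was 0.80 in selected cells. The part of glial RNA in other results was not tested.

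Of mast cell and basophil genes 0 of 7 were seen in the selected cells of either library, and of red blood cell genes 1 of 5 in selected knockout and 0 of 5 in selected control cells. T and NK cell genes summed to 23.3 and 12.2 CPM in selected knockout and control cells, with Ncr1 and Gzma at 0 in both, and neutrophil genes to 186 and 113 CPM. B cell genes summed to 137 and 164 CPM, of which Ighm, an antibody chain, made 111 and 121 CPM. Endothelial genes summed to 40.9 and 42.1 CPM with Cldn5 at 0 in both, and mural genes to 57.7 and 44.4 CPM with Kcnj8 at 0 in both. Pulp mesenchyme genes summed to 324 and 415 CPM, and 1 control cell held 56.6% of the control UMIs.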

How the data were processed

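Counts were deposited as 1 matrix of genes by barcodes per library, with whole-number UMI counts that are not normalized, written by Cell Ranger 6.0.1 (knockout) and Cell Ranger 5.0.0 (control), per the file headers. The build is mm10 and the tool Cell Ranger 6.0.1, per the submitters' processing notes. Libraries were made from sorted cells of dental pulp at postnatal day 12, 1 library for each genotype.

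Kept cells, myeloid cells and selected cells followed the limits stated in the first paragraph, and UMIs were then summed over the cells of a group and scaled to 1000000 (CPM). Ratios are of CPM, knockout over control, with exact conditional Poisson intervals. Shares have Clopper-Pearson intervals, and share ratios exact conditional Poisson intervals. Genes with 20 or more UMIs over both libraries were measured, and a difference of 2-fold or more was counted. Where a group had no UMI, the limit is the CPM of 3 UMIs in that library. Intervals and limits cover counting error and no variation between mice. Thinning drew 2000 UMIs from each cell and left out shallower ones, 138 of 1683 knockout and 100 of 2329 control cells.

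Genes named as highest or lowest had 30 or more UMIs in 5 or more cells, no more than 30% of UMIs in 1 cell and a CPM of 50% or more of that in non-myeloid cells. The 12 with the bound nearest to 1 farthest out were taken on each side, and 10 on each side against C1q and against Cd209a myeloid cells. From a list, the member of highest level and the 2 highest and 2 lowest ratios could be named, and any member of the classical, non-classical, chemokine, receptor, growth factor and VEGF receptor lists. The selected cells and the 39 gene lists were chosen with earlier results of these data known. The class II line, the look at cells with a Ly6c2 UMI and the motifs were chosen after the data were seen.

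Doublets were not removed. Scrublet called 4 knockout and 20 control cells, of which 2 and 0 were selected cells, and results without them were an alternative. Other alternatives changed the limits on cells and genes, the scaling, the weight of each cell, the class II line, and the cells used (Xist or Y cells, or without the cell of most UMIs or of most interferon UMIs, the last chosen after the data were seen). Promoter sequences came from RefSeq (GRCm38.p6), cut to the 250 bases before each start. Python 3.11.15, numpy 2.4.6, scipy 1.17.1, pandas 2.3.3, scanpy 1.11.5 and matplotlib 3.10.9 were used, and the counting of ratios and intervals was tested on simulated data. Some members of the lists are not reported here.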

Additional observations from a re-analysis of the deposited data

Results flagged for a closer look

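The inflammation list pointed in different directions in cells of each sex. Its median log2 ratio, knockout over control, was 1.03 among selected cells with Xist UMIs (89 knockout and 68 control cells) and -0.19 among selected cells with Y-linked UMIs (25 knockout and 14 control cells). Among these Y cells, 11 knockout cells and 1 control cell were class II-high, so the kinds of cells differed between the libraries as well. The difference between the sexes was not tested, since each genotype has 1 library.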

How the results depend on the processing

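With thinned cells the share ratio was 1.46 of kept and 1.14 of myeloid cells, and among Y cells 1.32 and 1.06. The other 16 alternatives of each share kept it within its interval. Genes 2-fold or more higher in the knockout library numbered 161 with thinned cells, 222 among Y cells, 674 with 10 or more UMIs and 178 with 50 or more. Genes 2-fold or more lower numbered 142 with thinned cells, 582 with 10 or more UMIs and 123 with 50 or more. The non-classical median was -0.95 among Xist cells and -0.50 in class II-high cells, the classical median -0.39 and the inflammation median -0.19 among Y cells. The interferon response median was -0.20 in class II-low cells, -0.17 with the class II line at 15 and -0.20 in cells with a Ly6c2 UMI. Among Y cells Nr4a2 had a ratio of 0.883, Ier3 0.605 and Mrc1 1.18, and in class II-high cells Eno3 had 2.46. The pulp mesenchyme median, -0.63 in all selected cells, was 0.42 without the cell of most UMIs in each library, 0.14 in class II-low cells, 0.22 and 0.19 with the line at 15 and 60, and 0.51 in cells with a Ly6c2 UMI. Among Y cells, where class II-high cells numbered 11 in the knockout and 1 in the control library, medians were 2.81 for MHC class II, 1.87 for dendritic cell, 1.41 for G2 and mitosis, -0.64 for transcription factor and -0.54 for growth factor genes. The glia median was 0.80 without called doublets and 3.85 among Xist cells. The cause was not tested. Of list medians under the alternatives, 609 moved by less than 1.5-fold, 33 by more, and 6 that had been past 1.5-fold changed sign. The hypoxia and glycolysis median ran from 0.30 to 0.95. With 1 library for each genotype, variation between mice was not measured, and intervals are wide where few UMIs were seen. No paired analysis was possible because each genotype has 1 library.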
